A study of Mus musculus with 847 samples.

Results

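The 10 genes described here mark the epithelium of the choroid plexus: Ttr, Folr1, Kl, Clic6, Sostdc1, Enpp2, Otx2, Prlr, Slc4a5 and Aqp1. They were given as a list of rows of a count table of 21076 genes, and all 10 were found there. The table holds 847 libraries of bulk RNA-seq from 15 brain regions of 59 mice, of which 57 libraries are from the region labelled Choroid Plexus and 790 from the 14 other regions. The mice were C57BL/6JN, with no treatment or engineered allele given in the labels, and were taken at 7 ages. In the Choroid Plexus the groups were 5 females and 5 males at 3 months, 4 and 4 at 12 months, 5 and 5 at both 15 and 18 months, 5 females and 6 males at 21 months, and males alone at 26 months (5) and 28 months (3). The comparisons that the design allows are the course of these genes over age and between the sexes in their own tissue, and how far their RNA reached into the libraries of the other regions.

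The choroid plexus is a fold of tissue inside the brain ventricles. A single layer of epithelial cells covers a core of leaky capillaries, stroma and macrophages, secretes cerebrospinal fluid and forms the barrier between blood and that fluid. Ttr encodes transthyretin, a carrier of thyroid hormone and of retinol-binding protein, and is among the most abundant transcripts of this epithelium. Folr1 is a folate receptor that moves folate into the fluid. Kl encodes klotho, a co-receptor for the hormone FGF23 that is also shed as a soluble protein and whose loss in mice gives a syndrome resembling early ageing. Prlr is the receptor of prolactin, a pituitary hormone that is higher in females and that signals through Jak2 and Stat5. Enpp2 encodes autotaxin, a secreted enzyme that makes lysophosphatidic acid; it is also made by oligodendrocytes. Sostdc1 is a secreted inhibitor of BMP and Wnt signals, and Otx2 is a homeobox transcription factor needed to form and keep the plexus. Aqp1 is a water channel and Slc4a5 a sodium bicarbonate cotransporter, both of the apical membrane, and Clic6 belongs to a family of chloride intracellular channel proteins.

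Prlr and Kl are the members on which the comparisons below turn, so the stretches before their transcription starts are shown, from RefSeq (GRCm38.p6). Each stretch is 250 bases on the plus strand, 5′ to 3′, and holds no annotated exon. Capitals mark a match to TTCNNNGAA, the core bound by Stat5, which acts downstream of Prlr. Prlr has 3 listed starts, at chr15:10176988-10177237, chr15:10223656-10223905 and chr15:10293401-10293650, and Kl has 1, at chr5:150952357-150952606.
Prlr, first start: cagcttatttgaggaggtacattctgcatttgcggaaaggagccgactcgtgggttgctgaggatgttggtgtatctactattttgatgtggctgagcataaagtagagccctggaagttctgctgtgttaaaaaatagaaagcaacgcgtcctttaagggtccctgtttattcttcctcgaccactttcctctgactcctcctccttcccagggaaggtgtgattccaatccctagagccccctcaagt
Prlr, middle start: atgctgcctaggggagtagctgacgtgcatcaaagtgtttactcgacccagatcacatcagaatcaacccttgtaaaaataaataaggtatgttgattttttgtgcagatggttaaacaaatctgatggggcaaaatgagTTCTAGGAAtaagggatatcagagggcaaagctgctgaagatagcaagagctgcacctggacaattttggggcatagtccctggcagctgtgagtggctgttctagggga
Prlr, last start: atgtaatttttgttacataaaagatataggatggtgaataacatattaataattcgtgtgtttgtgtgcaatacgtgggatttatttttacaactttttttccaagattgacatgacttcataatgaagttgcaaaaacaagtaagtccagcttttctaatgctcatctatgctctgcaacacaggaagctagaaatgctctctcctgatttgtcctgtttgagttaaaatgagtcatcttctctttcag
Kl: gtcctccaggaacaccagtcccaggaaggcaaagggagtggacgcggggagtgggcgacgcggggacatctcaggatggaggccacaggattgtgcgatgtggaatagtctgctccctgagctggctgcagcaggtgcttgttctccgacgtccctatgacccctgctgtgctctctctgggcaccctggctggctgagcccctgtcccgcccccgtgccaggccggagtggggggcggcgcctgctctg

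Only the middle Prlr stretch of the 4 shown held the Stat5 core, which 7.02% of 32851 RefSeq promoter stretches of this length hold on either strand. GC content was 66.8% in the Kl stretch and 48%, 44.8% and 32.8% in the 3 Prlr stretches in the order shown, against a median of 52.4% over all stretches. Sequences were matched for 5 members (Kl, Otx2, Prlr, Slc4a5 and Aqp1), with 10 stretches in all. A match to TAATCC, the core bound by Otx2, occurred in 1 of the 10 (6.25% of all promoter stretches hold it), and a match to TTCNNNGAA in 2 of the 10. Both motifs were searched on both strands, 1 stretch (of Otx2) held both, and there the matches did not overlap. A match describes letters and not a site in use.

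The libraries of the Choroid Plexus held between 1104224 and 21372652 reads, with a median of 7957001, and the 847 libraries between 481444 and 26756735. The 10 members took between 0.104% and 1.88% of the reads of a Choroid Plexus library (median 0.924%). Against its label, this tissue carried neural RNA at the level of brain: Snap25, a neuronal synaptic gene, had a median of 2709 CPM (reads of a gene per 1e+06 reads of its library; range 1897 to 3346) and Mbp, a myelin gene, 5675 CPM. The summed level of 8 neuronal markers had a median of 5903 CPM in Choroid Plexus, inside the range of medians of the other 14 regions (4164 to 9536 CPM), and 7 oligodendrocyte markers summed to 13143 CPM (1518 to 25202 CPM in the others). Every level below is a level in that mixture of plexus and brain. In bulk tissue, fewer epithelial cells and less RNA per cell cannot be told apart.

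Within the Choroid Plexus, Ttr was the most abundant member per length. Per kilobase of exon its median was 4607 CPM, against 572.6 for Enpp2, 36.35 for Sostdc1, 27.86 for Folr1, 27.15 for Clic6, 18.74 for Kl, 10.52 for Aqp1, 9.137 for Prlr, 6.338 for Otx2 and 6.332 for Slc4a5. Ttr was above Enpp2, and Enpp2 above Sostdc1, in 57 of 57 libraries. Of the neighbours in this order, Folr1 and Clic6 changed places from library to library (Folr1 higher in 22 of 57), as did Aqp1 and Prlr (Aqp1 higher in 33) and Otx2 and Slc4a5 (Otx2 higher in 30). The remaining steps had the same order in 56 or 57 libraries.

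The members varied widely between mice. Ttr, which spans chr18:20665280-20674321 on the plus strand of GRCm38, ran from 511.6 to 11228 CPM with a median of 5464 CPM. Enpp2 (chr15:54838901-54952892, minus strand) ran from 444.5 to 6549 CPM around a median of 3309 CPM. For Kl (chr5:150952607-150993817, plus strand) the range was 22.54 to 329.3 CPM and the median 174.8 CPM. Those 3 are the most abundant members in reads, and their lowest value came from the same mouse, number 3, a male of 12 months.

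Prlr (chr15:10177238-10349180, plus strand) ranged from 24.22 to 355.6 CPM with a median of 140.1 CPM. Clic6 (chr16:92485736-92541243, plus strand) had a median of 106.3 CPM (12.72 to 209), Sostdc1 (chr12:36314139-36318452, plus strand) 64.74 CPM (8.482 to 150.9) and Folr1 (chr7:101858331-101870788, minus strand) 64 CPM (5.58 to 135.8). Slc4a5 (chr6:83219828-83304945, plus strand) had 36.75 CPM (4.708 to 73.35), Aqp1 (chr6:55336432-55348555, plus strand) 27.63 CPM (2.232 to 57.05) and Otx2 (chr14:48657677-48673819, minus strand) 26.75 CPM (3.683 to 47.29). Mouse 3 was again the lowest for 6 of these 7, and for Slc4a5 the lowest was mouse 15, also a male of 12 months. Libraries were not stranded, so reads from Otx2 and Enpp2 cannot be told from those of their antisense partners Otx2os1 and Gm26684. Exons of Prlr also overlap those of Gm21973 on the same strand, and exons of Otx2 those of Gm49154, so reads in the shared stretches cannot be assigned to 1 gene with certainty.

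This spread was shared. Across the 57 libraries the log2 level of the other 9 members correlated with that of Ttr at r between 0.961 and 0.984, except for Prlr at 0.886, and all pairs of members lay between 0.862 and 0.985. These correlations are descriptions, since the members share libraries, and the amount of plexus in a piece was not measured apart from such genes. Set against Ttr, the spread was smaller. Folr1 gave 12.4 ± 1.19 reads per 1000 Ttr reads (SD, n = 57, coefficient of variation 9.61%), and the other members had coefficients of variation from 12.1% to 16.0%. Prlr stood apart, with 29.2 ± 8.23 reads per 1000 Ttr reads and a coefficient of variation of 28.2%.

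Other genes followed the members closely. Among 11943 genes averaging 5 CPM or more, members left out, those with the highest correlation with the mean of the members over the 57 libraries were Calml4 (r = 0.985), Tmem72 (0.983), Drc7 (0.980), Cldn2 (0.977) and Kcnj13 (0.977). Cldn2 is a claudin of leaky tight junctions and Kcnj13 an inward-rectifier potassium channel. Over the 790 libraries of other regions, centred by region, the closest were Kcnj13 (0.877), Col8a1 (0.862), Col9a3 (0.830), Slc31a1 (0.820), a copper transporter, and Mfrp (0.816).

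None of the 10 members changed with age in the Choroid Plexus at an adjusted p below 0.05. The mice of 3 months had a mean Ttr of 4201 ± 1528 CPM (SD, n = 10, 1676 to 6147) and those of 12 months 4048 ± 2229 CPM (n = 8, 511.6 to 7276). At 15 months it was 6636 ± 1975 CPM (n = 10, 3677 to 10809), at 18 months 5067 ± 1563 CPM (n = 10, 2410 to 7728) and at 21 months 6469 ± 2774 CPM (n = 11, 2323 to 11228). The 5 males of 26 months had 1740, 3127, 3393, 4701 and 7373 CPM, and the 3 males of 28 months 4473, 7023 and 7819 CPM. All ages overlapped, and the means did not move in 1 direction. With age as a number and sex as a further term, the slope of Ttr was 0.023 log2 per month (SE 0.013, adjusted p = 0.202, edgeR).

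**Figure D1:**
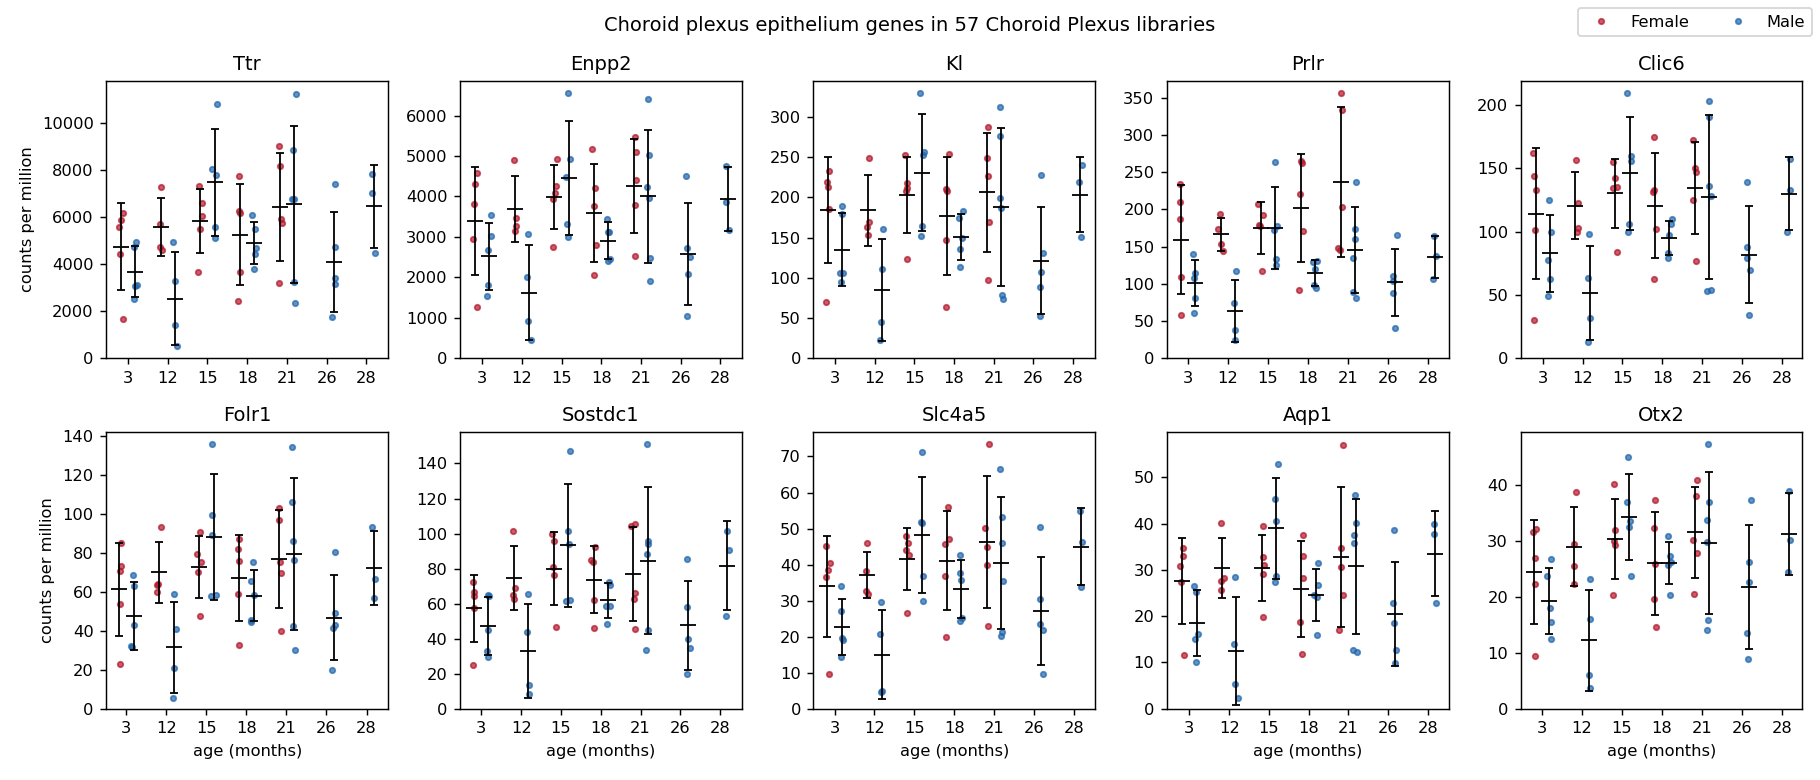
Level of each of the 10 members in the Choroid Plexus (CPM, linear axis from 0) against age in months, 1 point per mouse (females red, males blue), with bars for the mean and SD of each age and sex. Points of the different ages overlap for every member, and a male of 12 months is the lowest in each panel.

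The remaining slopes were alike in size. Slc4a5 had the largest, 0.025 log2 per month (SE 0.0121, adjusted p = 0.133), and Kl the smallest, 0.0099 (SE 0.0124, adjusted p = 0.607). The other 7 lay between 0.0144 for Aqp1 and 0.0211 for Sostdc1, with adjusted p from 0.218 to 0.438. The median of the 10 slopes was 0.0177, against -0.000223 over the 14648 genes tested, of which 20.1% passed. Thus 0 of 10 members passed, 1 of 10 had an unadjusted p below 0.05, and DESeq2 also called 0 of 10.

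Taken age by age against 3 months, no member passed at any of the 6 later ages. An unadjusted p below 0.05 (edgeR) was found for 5 of 10 members at 15 months, 4 at 21 and 1 at 28 months. It was found for 0 at 12, 18 and 26 months. Of all 14648 genes, 1668 had such a p at 15 months, 5246 at 21 and 2470 at 28 months. All 10 members were above 3 months at 15, 18, 21 and 28 months, 1 at 12 months and 3 at 26 months. At 15 months the fitted ratio to 3 months lay between 1.37 for Kl and 1.63 for Sostdc1 (adjusted p = 0.282 for Sostdc1 and 0.374 for Ttr), and at 21 months between 1.22 for Kl and 1.54 for Ttr (adjusted p = 0.475 and 0.108). The log2 difference of Ttr from 3 months was 0.0487 at 26 months (a ratio of 1.03) and 0.706 at 28 months (a ratio of 1.63, adjusted p = 0.413). The share of all genes passing was 0.00683% at 12 months, 0.539% at 15, 2.27% at 18, 21.7% at 21, 2.57% at 26 and 3.96% at 28 months, and these 6 comparisons share the 3-month libraries. The mice of 12 and 26 months carry the numbers 1 to 15, those of 28 months 57 to 59, and the rest 16 to 56, so that age and any difference in handling between these runs of numbers cannot be told apart for 12, 26 and 28 months. What a number stands for is not given in the sources used here.

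Because the members moved together, each was also compared at a given level of Ttr, by adding the log2 level of Ttr to the fit. This comparison and all others with a covariate from the epithelium were chosen after the data were seen. Kl then fell with age, and none of the other 8 members passed. Per 1000 Ttr reads there were 38.0 ± 3.02 Kl reads at 3 months (SD, n = 10, range 34.2 to 42.0) and 34.4 ± 4.40 at 12 months (n = 8). The means were 32.9 ± 2.95 at 15 months (n = 10), 32.1 ± 3.59 at 18 months (n = 10) and 30.3 ± 3.54 at 21 months (n = 11, range 24.05 to 38.4). The 5 libraries of 26 months gave 27.82, 28.24, 30.12, 30.95 and 31.59, all below the lowest of the 3-month libraries, and the 3 of 28 months gave 30.65, 31.22 and 33.63, likewise below it; the groups of 3 and 21 months overlapped.

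The slope of Kl at a given level of Ttr was -0.013 log2 per month (SE 0.00251, adjusted p = 0.000137, edgeR), in a fit where 15.6% of all genes passed. It was -0.0132 without mouse 3 (adjusted p = 7.47e-05), -0.0185 within mice 16 to 56 (adjusted p = 3.15e-05) and -0.0117 in males alone (adjusted p = 0.00873). The size depends on what is taken as the measure of epithelium. With the mean of 4 other epithelial genes in place of Ttr (Kcne2, Kcnj13, Tmem72 and Calml4), the slope of Kl was -0.00285 (adjusted p = 0.479). In that fit, where 18.8% of all genes passed, 5 members rose: Slc4a5 by 0.0152 log2 per month (adjusted p = 0.000284), Ttr by 0.00987 (0.000647), Sostdc1 by 0.01 (0.00861), Otx2 by 0.00893 (0.0218) and Enpp2 by 0.00763 (0.00478). Of 26 other epithelial genes tested at a given level of Ttr, 7 fell with age and 1 rose. Those that fell were the potassium channel genes Kcnj13 (-0.016 log2 per month) and Kcne2 (-0.0144), the clotting factor gene F5 (-0.0151), Mia, Calml4, the claudin gene Cldn2 and the cation channel gene Trpv4. Of the 4 genes of the second measure, 3 are among these 7. In CPM alone, neither Kl nor any of these 7 passed.

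Prlr was the member that differed between the sexes. In CPM, the 5 females of 18 months had 91.8, 171.3, 220.3, 262.4 and 265.0 and the 5 males 94.76, 98.4, 119.8, 129.3 and 129.9. At 3 months the females had 58.28, 108.5, 186.5, 209.2 and 233.9 CPM and the males 61.01, 80.14, 107.8, 114.6 and 140.1. At both ages 1 female lay below all 5 males, while the other 4 females of 18 months and 3 of the other 4 of 3 months lay above them all. At 12 months the 4 females (143.4 to 194.1 CPM) lay above the 4 males (24.22 to 117.7). The means of the sexes were equal at 15 months, with 174.6 ± 34.5 CPM in females and 174.6 ± 55.2 in males (SD, n = 5 each) and a male the highest at 264.1. They overlapped at 21 months, with 236.9 ± 101 CPM in 5 females and 145.7 ± 57.8 in 6 males. Over the ages of 3 to 21 months, males were lower by 0.659 on the log2 scale, a ratio of 0.633 (SE 0.161, adjusted p = 0.0271, edgeR); 0.963% of 14429 genes passed in this comparison. DESeq2 called it too. The other 9 members were lower in males by point estimates from -0.178 to -0.321 log2, none past the threshold. The call was lost within mice 16 to 56 (-0.534, adjusted p = 0.143), with the neuronal level as a covariate (-0.604, adjusted p = 0.0569) and without either of 2 females, mouse 37 (-0.625, adjusted p = 0.0536) or mouse 44 (-0.614, adjusted p = 0.0516).

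At a given level of Ttr the difference in Prlr was more precise. Per 1000 Ttr reads, females had 34.6 ± 8.21 Prlr reads (SD, n = 24, range 24.6 to 60.3) and males of 3 to 21 months 25.7 ± 6.13 (n = 25, range 19.6 to 47.3). At 18 months the females had 34.29, 35.33, 38.09, 42.62 and 46.61 and the males 21.23, 21.35, 23.74, 25.66 and 25.88, so the sexes did not overlap. They also did not overlap at 15 months, with 26.4 to 32.7 in females and 21.5 to 24.5 in males. At 3, 12 and 21 months they did: the means were 33.4 ± 6.07 against 27.8 ± 5.99, 30.2 ± 2.77 against 30.2 ± 11.6 and 38.7 ± 14.8 against 24.4 ± 5.82. The male spread at 12 months contains mouse 3, with 47.3. The males of 26 and 28 months, which have no female counterpart, had 25.7 ± 4.43 and 21.5 ± 2.24.

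With the log2 level of Ttr in the fit, Prlr was lower in males by 0.496 log2, a ratio of 0.709 (95% interval of the log2 difference -0.641 to -0.351, adjusted p = 2.2e-05), where 1.18% of all genes passed. Within mice 16 to 56 it was -0.508 (adjusted p = 0.000326), and without mouse 3, 37 or 44 it was -0.501, -0.484 or -0.442, past the threshold each time. With the 4 other epithelial genes as the measure it was -0.371 (adjusted p = 0.000952), in a fit where 0.866% of all genes passed. Enpp2 (-0.153, adjusted p = 0.0224) and Clic6 (-0.152, adjusted p = 0.0484) were also lower in males at a given level of Ttr. Neither held within mice 16 to 56 (adjusted p = 0.0782 for Enpp2), and Clic6 lost its call without mouse 37 or 44. Of the 26 other epithelial genes 6 were lower in males in this fit as well, among them Kcnj13 (-0.222), Kcne2 (-0.215) and the collagen genes Col8a1 (-0.304) and Col8a2 (-0.277). Against the 4 genes, Ttr itself was higher in males by 0.162 (adjusted p = 0.00373). Macrophage markers also differed in these libraries: 4 of 8 were lower in males, among them Cd74 (-1.05 log2) and Lyz2 (-0.711), and their summed level had a median of 295 CPM in females (192.2 to 661.5) and 233.6 CPM in males (178 to 386.2). Their part in the difference of Prlr was not tested.

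**Figure D2:**
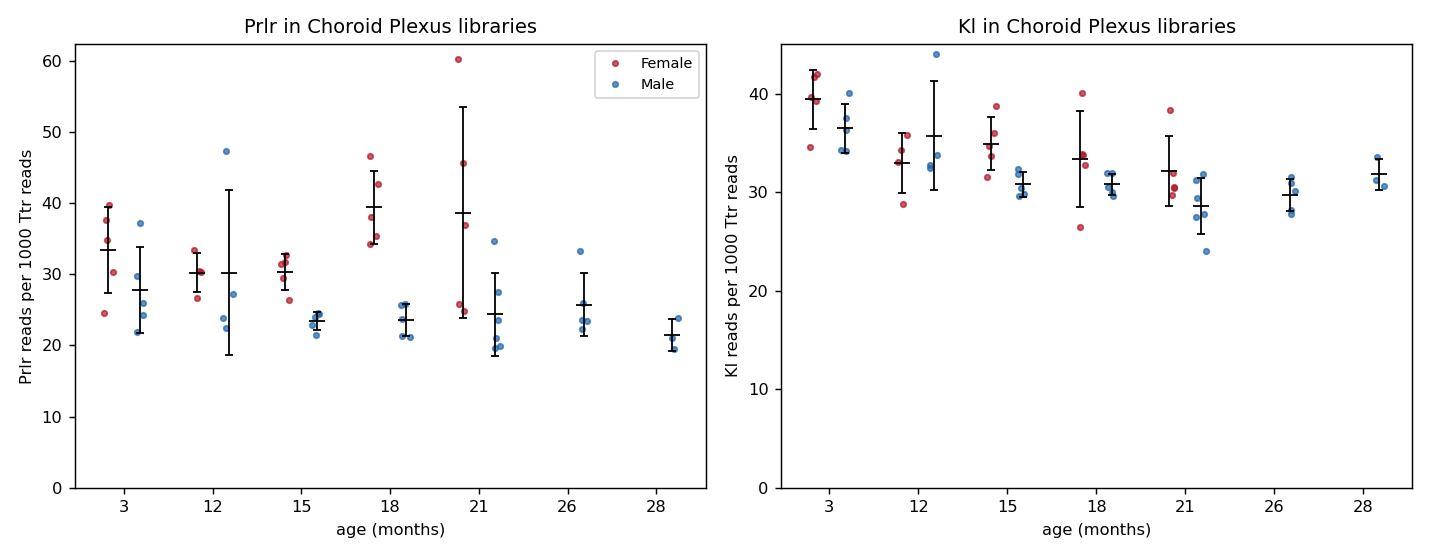
Reads of Prlr (left) and of Kl (right) per 1000 Ttr reads in each Choroid Plexus library against age in months (females red, males blue), with bars for the mean and SD of each group. Prlr of all females lies above that of all males at 15 and 18 months, and the mean of Kl is highest at 3 months in both sexes.

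No member passed the test for an age slope that differs between the sexes. Of 14429 genes, 0 passed an adjusted p below 0.05 for the age by sex term (0% of the genes, with 545 at an unadjusted p below 0.05, edgeR). By point estimate the term was above 0 for 10 of 10 members, with a median of 0.0239 log2 per month. That no gene passed does not show that the slopes of the sexes are alike. For Prlr the term was 0.00195 log2 per month in CPM (adjusted p = 1) and -0.0226 at a given level of Ttr (adjusted p = 1).

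Of 8 genes of prolactin receptor signalling, 0 passed the test between the sexes, in the fit where 0.963% of all genes did. Their median difference was -0.117 log2, against -0.00062 over all genes, and whether it differs from that of Prlr was not tested. Jak2, the kinase bound to the receptor, was -0.145 log2 in males (adjusted p = 0.297), and Cish, a feedback inhibitor induced by Stat5, was -0.276 (adjusted p = 0.243). With age 2 of the 8 rose, where 20.1% of all genes passed in either direction: Stat5a (1.81 ± 0.695 CPM at 3 months and 3.39 ± 0.546 at 21 months, 0.0389 log2 per month, adjusted p = 0.00147) and Socs3 (0.0377, adjusted p = 0.0031). Jak2 (0.0083, adjusted p = 0.104), Stat5b (0.01, adjusted p = 0.188), Cish (0.00579, adjusted p = 0.615) and Socs2 (-0.0163, adjusted p = 0.0669) did not pass. All 8 are also expressed outside the epithelium, and their source within the piece was not measured.

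The counts of the gene groups that follow come from the same age fit and stand against that share of 20.1%, with no test of a group against it. Among 6 tested genes around klotho and the FGF receptors, 2 rose with age: Fgfr2 (49.6 ± 19.6 CPM at 3 months, 78 ± 11.5 at 21 months, 0.033 log2 per month, adjusted p = 0.00125) and Adam10, a protease that sheds klotho (55.7 ± 3.82 to 63.5 ± 8.76 CPM, 0.0082, adjusted p = 0.013). Of 7 receptors and phosphatases of lysophosphatidic acid, the product of Enpp2, 2 rose and 1 fell; the risers were Plpp2 (8.21 ± 3.37 to 14.4 ± 3.17 CPM, adjusted p = 0.00256) and Lpar1 (82.8 ± 39.5 to 130 ± 32.9 CPM, adjusted p = 0.044), a receptor that oligodendrocytes carry. Of 11 BMP and Wnt partners of Sostdc1, Bmp7 alone rose (15.3 ± 3.75 to 20.5 ± 4.07 CPM, adjusted p = 0.0352). The genes of ion transport in fluid secretion gave 5 rising and 1 falling of 16, with Car2, a carbonic anhydrase that is also in myelin (504 ± 174 to 785 ± 128 CPM, adjusted p = 0.00384), and Atp1b3, a sodium pump subunit (185 ± 43.1 to 254 ± 20.7 CPM, adjusted p = 0.0023), while Atp1b1, another subunit of that pump, fell by 0.0051 log2 per month (adjusted p = 0.0392). None of 16 carriers of nutrients and hormones changed.

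Of 26 other genes of the epithelium tested, 1 rose with age: Wfikkn2, a secreted protease inhibitor domain protein that binds GDF8 and GDF11, from 4.13 ± 2.16 to 8.04 ± 4.22 CPM (0.0465 log2 per month, adjusted p = 0.0031). It also rose at a given level of Ttr (0.036, adjusted p = 0.00111). The median slope of these 26 was 0.0146, close to the 0.0177 of the members. Markers of other cells in the piece moved with age in the same libraries. Of 8 macrophage genes 6 rose, with Lyz2 from 17.8 ± 4.26 to 95 ± 48.4 CPM (adjusted p = 2.22e-14) and Aif1 from 6.49 ± 1.18 to 14.2 ± 3.62 CPM (adjusted p = 4.73e-12), and the summed level of the 8 went from a median of 205.6 CPM at 3 months (178 to 262.2) to 385.8 CPM at 21 months (310.7 to 661.5). Of 7 oligodendrocyte genes 3 rose, of 6 astrocyte genes 2 rose, and of 7 endothelial genes 3 rose. Of 8 neuronal genes 2 fell, of 4 dentate granule neuron genes 2 fell (C1ql2, 22.8 ± 21.1 to 7.23 ± 2.45 CPM, and Neurod1), of 8 stromal genes Col1a1 fell, of 10 ependymal genes Pltp rose, and of 5 blood genes 0 moved. The part of these cells in the slope of Kl was not tested.

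Outside the Choroid Plexus, Ttr was found at high level in the libraries of a few regions only, and there unevenly. The median was 452 CPM in Corpus callosum and 240 CPM in Subventricular zone, 8.28% and 4.39% of the Choroid Plexus median. Both tissues border the lateral ventricle. Corpus callosum libraries ran from 0 to 16910 CPM, and 5 of 57 exceeded the highest Choroid Plexus library; by the mean, the region reached 62.1% of Choroid Plexus. Subventricular zone ran from 0.517 to 7982 CPM, 35.2% of Choroid Plexus by the mean. Medians elsewhere were 8.77 CPM in Thalamus (highest library 1695), 2.89 in Medulla (1657), 2.61 in Hypothalamus (68.4), 0.734 in Entorhinal cortex (54.9), 0.521 in Olfactory bulb (11.7), 0.382 in Caudate putamen (2878), 0.151 in Pons (9.78) and 0 in Hippocampus (anterior) (4032), Hippocampus (posterior) (1206), Motor cortex (669), Visual Cortex (30.9) and Cerebellum (9.58).

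**Figure D3:**
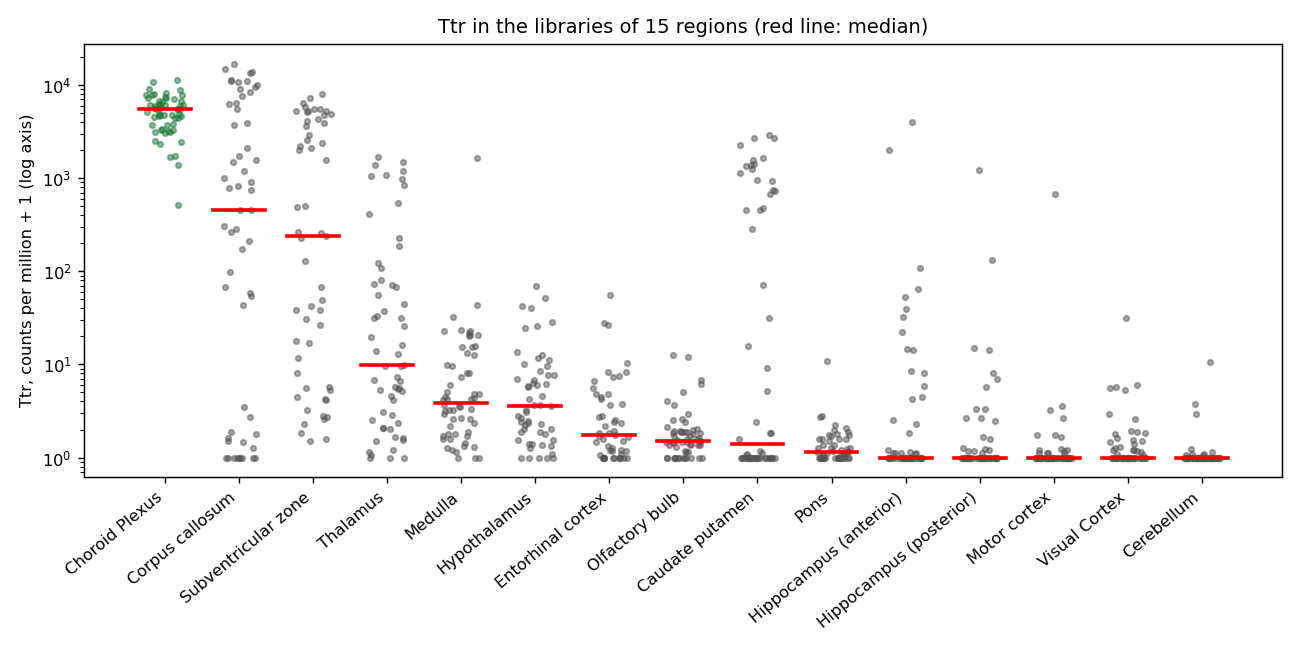
Ttr level (CPM + 1, log axis) of every library in each of the 15 regions, 1 point per library, with a red line at the median of each region. Corpus callosum, Subventricular zone and Caudate putamen spread from near 0 to the range of Choroid Plexus, while Cerebellum, Pons and Olfactory bulb reach 9.58, 9.78 and 11.7 CPM at most.

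Libraries at or above 500 CPM, just under the lowest Choroid Plexus library, numbered 81 of 790. They were 28 of 57 in Corpus callosum, 23 of 55 in Subventricular zone, 16 of 58 in Caudate putamen, 9 of 59 in Thalamus, 2 in Hippocampus (anterior) and 1 each in Hippocampus (posterior), Motor cortex and Medulla, with 0 in the 6 remaining regions. In the order of medians, 6 of the 13 steps between neighbouring regions were larger than the scatter of libraries (permutation test of mean log2(CPM + 1), two-sided, adjusted over the 13). The order, and so the choice of pairs, came from these same Ttr values, and the order itself was not tested. Subventricular zone was above Thalamus by 3.13 log2 (adjusted p = 0.000173), Thalamus above Medulla by 1.94 (0.000617) and Hypothalamus above Entorhinal cortex by 0.83 (0.0138). Caudate putamen, low in its median, was above Olfactory bulb by mean log2 (the step was -3.09, adjusted p = 6.5e-05) and above Pons by 3.49 (adjusted p = 6.5e-05), and Pons was below Hippocampus (anterior) by a step of -1.02 (adjusted p = 0.0138). Corpus callosum and Subventricular zone did not differ beyond their scatter (0.177, adjusted p = 0.845). With the mouse as a block, since the same animals gave all regions, 6 of 13 steps passed as well, and the step from Corpus callosum to Subventricular zone was 0.427 (adjusted p = 0.46).

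The other members came with Ttr. The 3 highest Corpus callosum libraries, from mouse 27 (a male of 18 months), mouse 22 (a male of 15 months) and mouse 33 (a male of 3 months), had 16910, 14906 and 13841 CPM of Ttr. In the same order they had 199.8, 173.5 and 170.1 CPM of Folr1, 459.5, 438.3 and 438.8 CPM of Kl, and 287.6, 245 and 280.8 CPM of Prlr. Folr1 and Kl of these 3 were all above the highest Choroid Plexus library, and Prlr was inside the Choroid Plexus range. In each of the 9 regions with a library at or above 500 CPM of Ttr, each member was regressed on Ttr over the libraries. Per 1000 CPM of Ttr the slope of Folr1 lay between 9.44 and 14.8 CPM, that of Slc4a5 between 6.22 and 8.21, that of Kl between 21.3 and 30.4, that of Clic6 between 16.6 and 28.9, that of Sostdc1 between 10.5 and 18.6, that of Enpp2 between 459 and 802, that of Otx2 between 3.87 and 8.08, that of Aqp1 between 2.86 and 6.56 and that of Prlr between 15.9 and 39.1. These regions include Choroid Plexus, the slopes rest on few high libraries in several of the regions, and libraries share their mice.

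**Figure D4:**
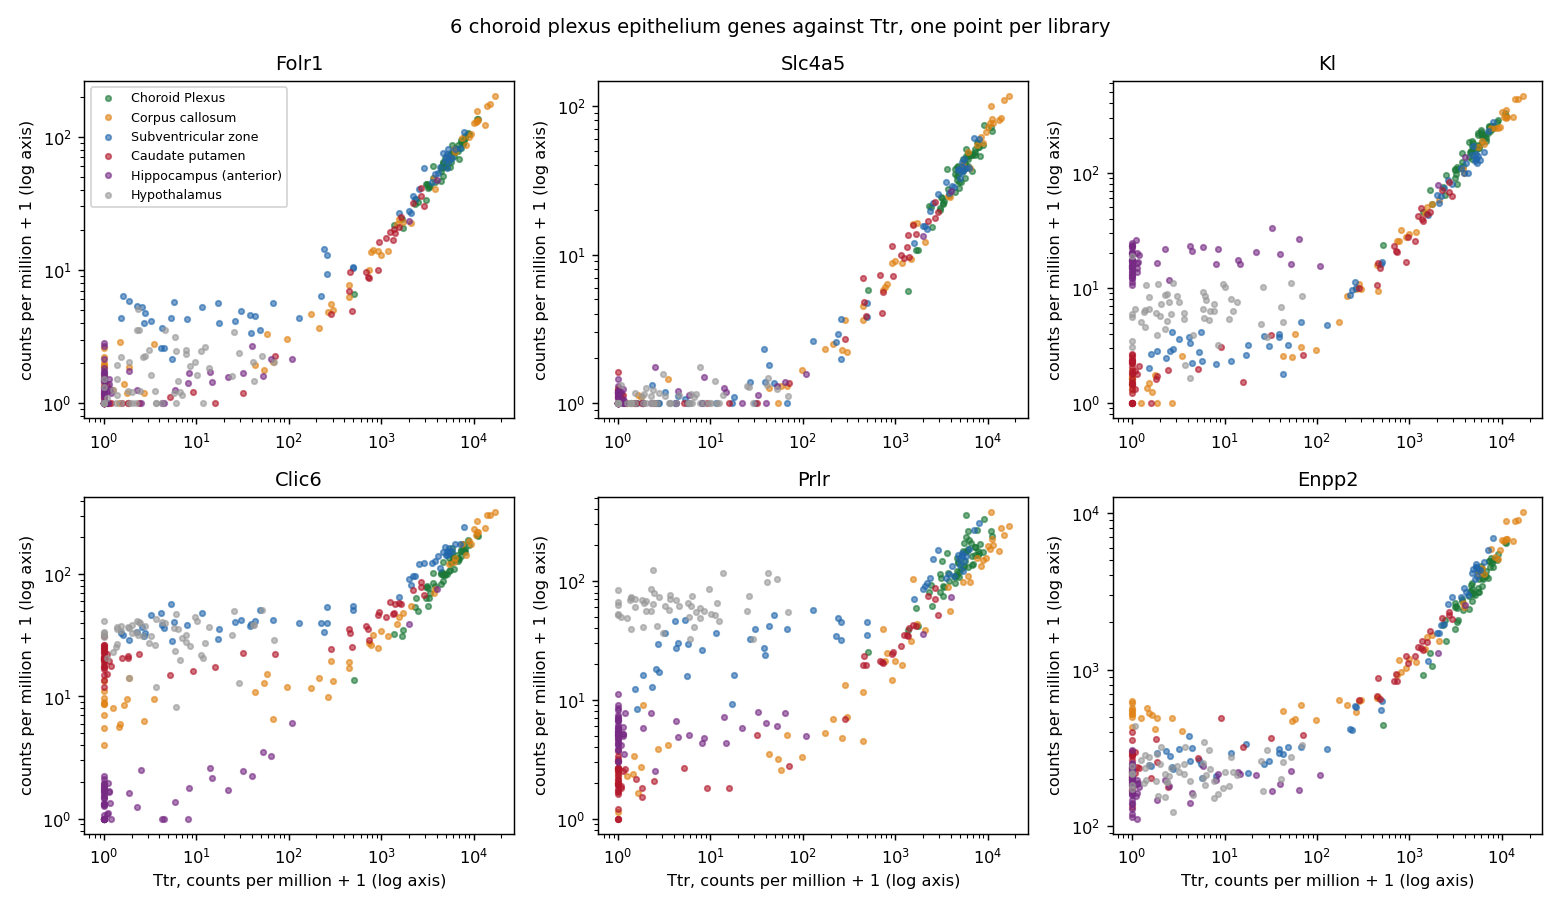
Levels of 6 members (Folr1, Slc4a5, Kl, Clic6, Prlr and Enpp2) against Ttr (CPM + 1, both axes log), 1 point per library, for Choroid Plexus and 5 other regions in colour. At high Ttr the libraries of the regions that reach it fall along 1 band. Hypothalamus, with 68.4 CPM of Ttr at most, does not reach it. At low Ttr Kl, Clic6, Prlr and Enpp2 keep levels that differ between regions.

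Several members had levels of their own in regions where Ttr was near 0. Aqp1 was highest in Olfactory bulb, with a median of 33.07 CPM (20.3 to 53.28, n = 58), 119.7% of its Choroid Plexus median, against a Ttr median of 0.521 CPM there. Prlr had a median of 60.97 CPM in Hypothalamus (31.31 to 124, n = 55), 43.5% of Choroid Plexus, with Ttr at 2.61 CPM; hypothalamic neurons are a known target of prolactin. In Olfactory bulb Prlr was at 0 CPM by the median. Clic6 had 31.9 CPM in Hypothalamus (7.251 to 49.93), 30.0% of Choroid Plexus, and 13.7 CPM in Cerebellum (7.015 to 19.18). Kl had 16.2 CPM in Hippocampus (anterior) (9.506 to 135.2) and 9.97 CPM in Hippocampus (posterior), where Ttr had a median of 0. Enpp2 was at or above 1 CPM in 790 of 790 libraries and at or above 100 CPM in 759, with oligodendrocytes as a further known source. By contrast Folr1 was at 0 in 360 and at or above 1 CPM in 187 of the 790 libraries, Slc4a5 at 0 in 326 and Ttr at 0 in 282. Otx2 reached a median of 3.214 CPM in Cerebellum (0 to 14.3), with 2 of 58 libraries at 0.

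Within mice, high Ttr in Corpus callosum and in Subventricular zone went together. Of 54 mice with both libraries, 20 were at or above 500 CPM in both, 8 in Corpus callosum alone, 2 in Subventricular zone alone and 24 in neither. Since the Corpus callosum libraries fall into a low and a high cluster, the relation was taken within each. The cut at 10 CPM was set at a gap in these same values. Libraries above it lie on both sides of 500 CPM, so the relation there is not separate from the counts just given. Among the 38 mice above 10 CPM in Corpus callosum, log2 Ttr of the 2 regions correlated at r = 0.669 (permutation p = 3e-05, adjusted over 6 relations 0.00018) and rho = 0.59 (permutation p = 0.00015, adjusted 0.0009), and r was 0.59 without the 2 farthest mice. Within mice 16 to 56 of that cluster r was 0.668 (n = 27, permutation p = 0.00018). Among the 16 mice at or below 10 CPM, r was -0.26 (permutation p = 0.336, adjusted 0.634).

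Ttr of the Choroid Plexus library itself did not follow with a passing test. Against Corpus callosum above 10 CPM r was -0.307 (n = 40, permutation p = 0.0524, adjusted 0.157) and rho -0.325 (permutation p = 0.0418, adjusted 0.125); at or below 10 CPM r was 0.149 (n = 16, permutation p = 0.572, adjusted 0.687). The Subventricular zone libraries were split at 500 CPM, likewise set at a gap in these same values. Above that cut r was -0.18 (n = 22, permutation p = 0.423, adjusted 0.634). At or below it r was -0.0618 (n = 31, permutation p = 0.749, adjusted 0.749). Caudate putamen, which borders the same ventricle, joined the pair. Of its 15 high libraries with a Corpus callosum partner 14 had a high partner, where 28 of the 56 mice with both libraries were high. Of 16 with a Subventricular zone partner 14 had a high one (23 of 54 mice high). Of the high Thalamus libraries 3 of 9 were matched in Corpus callosum, where 28 of the 57 mice with both libraries were high. In Subventricular zone 2 of 8 were matched (23 of 55 mice high), and in Caudate putamen 0 of 8 (16 of 58). These counts are small, and whether Thalamus differs from the other regions was not tested.

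**Figure D5:**
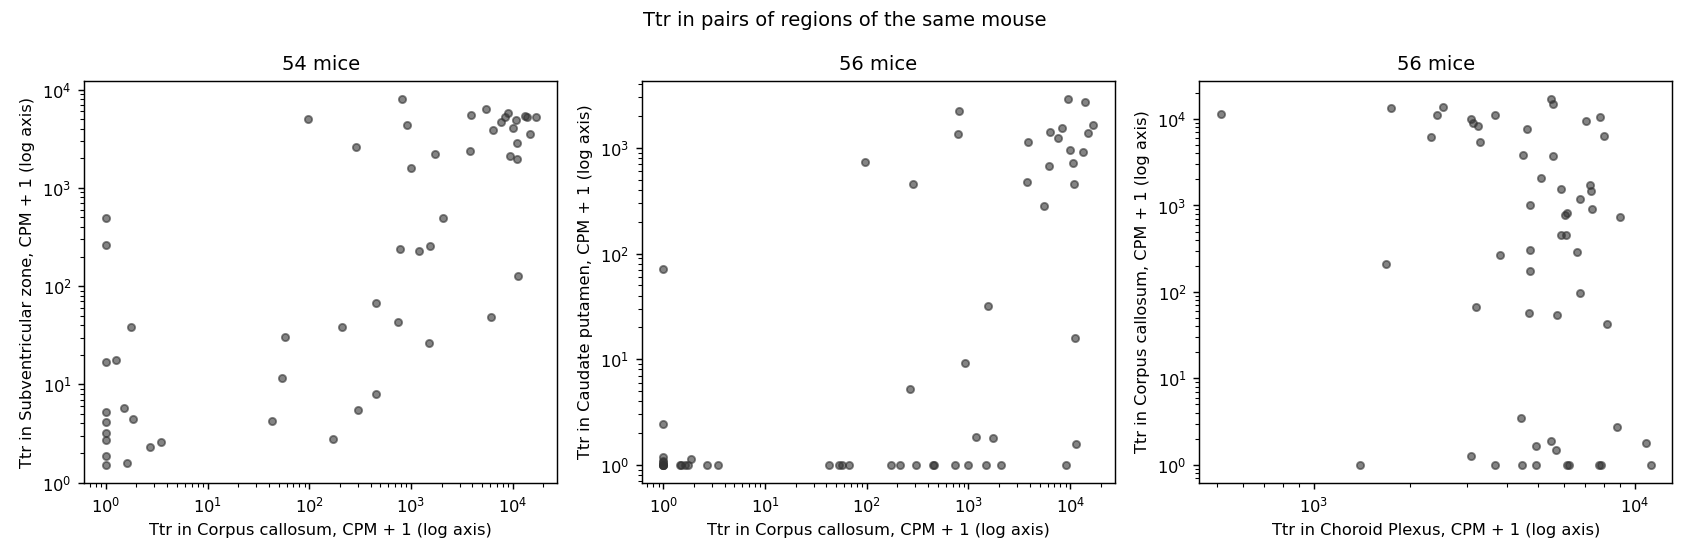
Ttr (CPM + 1, log axes) in 3 pairs of regions of the same mouse, 1 point per mouse: Subventricular zone against Corpus callosum (54 mice), Caudate putamen against Corpus callosum (56) and Corpus callosum against Choroid Plexus (56). In the first panel 20 mice have at least 500 CPM in both regions, in the second the high Caudate putamen libraries sit at high Corpus callosum, and in the third the points show no rising band.

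No age slope of a member passed in the regions that carried most of this spread. In Corpus callosum the slope of Ttr was 0.00868 log2 per month (SE 0.0631, adjusted p = 0.959) and 0 of 10 members passed, where 17.8% of all genes did. None of 10 members passed in Subventricular zone, Caudate putamen or Thalamus, where 7.68%, 13.3% and 3.74% of all genes passed. Elsewhere the filter on low counts left fewer members to test. None passed of 8 in Entorhinal cortex (0.0964% of all genes), 6 in Hippocampus (posterior) (6.08%) and 8 in Medulla (10.1%). Nor did any of 6 in Olfactory bulb (15.3%), 8 in Pons (4.64%) or 5 in Visual Cortex (9.42%). Across the 14 regions 10 slopes passed. They were 6 of 8 tested in Hippocampus (anterior), 2 of 9 in Hypothalamus, 1 of 5 in Motor cortex and 1 of 6 in Cerebellum. Of all genes, 9.31%, 6.79%, 16.4% and 16.4% passed there, in that order. The call of 9 of the 10 passing slopes was lost without a single library.

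In Hippocampus (anterior), 6 members passed: Ttr (0.344 log2 per month, adjusted p = 0.00203), Clic6 (0.217), Folr1 (0.216), Sostdc1 (0.0798), Prlr (0.0751) and Enpp2 (0.0567). Standing far above the rest there were 2 libraries, of mouse 5 of 26 months with 4032 CPM of Ttr and of mouse 20 of 21 months with 2019 CPM. Without mouse 5, none of the 6 passed (Ttr 0.23, adjusted p = 0.0987), and without both, Ttr had 0.0123 (adjusted p = 0.952) and Sostdc1 -0.00384 (adjusted p = 0.849). In Motor cortex, Ttr fell with age by 0.291 log2 per month (adjusted p = 0.0079), and without the library of mouse 3, at 669 CPM, the slope was 0.125 (adjusted p = 0.0845). The same mouse had 511.6 CPM of Ttr in Choroid Plexus, the lowest of that region, and 11313 CPM in Corpus callosum. In Hypothalamus, Aqp1 (0.148, adjusted p = 0.0342) had 0.0556 without mouse 58 (adjusted p = 0.507).

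The remaining calls were Clic6 in Hypothalamus and Slc4a5 in Cerebellum. Clic6 had 23.1 ± 8.61 CPM in Hypothalamus of 3-month mice (SD, n = 9), 28.9 ± 5.63 at 12 months (n = 9), 37.1 ± 6.14 at 21 months (n = 11) and 28.3 ± 3.47 at 26 months (n = 4), with overlap between all of these. At 28 months Clic6 had 39.74 and 46.4 CPM (n = 2), both above the highest 3-month value of 36.39 CPM. Its slope was 0.0262 log2 per month (SE 0.00781, adjusted p = 0.0297) and 0.0362 within mice 16 to 56 (adjusted p = 0.0328). It did not pass without mouse 57, of 28 months (0.0249, adjusted p = 0.0634), or in males alone (0.0174, adjusted p = 0.415). Ttr was 68.4 CPM at most in that region. Slc4a5 in Cerebellum was low at every age, with 0.563 ± 0.275 CPM at 3 months (n = 10), 0.878 ± 0.695 at 18 months (n = 10) and 1.43 ± 0.632 at 26 months (n = 5), and these groups overlapped. At 28 months Slc4a5 had 1.344 to 1.74 CPM (n = 3), above all 3-month values (0 to 0.9767 CPM). Its slope was 0.0527 (SE 0.013, adjusted p = 0.0024), between 0.052 and 0.0541 without any 1 of the 7 mice left out in turn. It did not enter the fits within mice 16 to 56 or in males alone, where it fell under the filter on low counts.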

How the data were processed

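RNA was isolated from homogenised tissue, made into cDNA by Smart-Seq2 and sequenced as unstranded mRNA libraries prepared with Nextera XT, per the labels' protocols. The deposited values are raw read counts per gene, not normalized; Trim Galore 0.3.7, STAR 2.5.3a, DESeq2 and GRCm38 are named in the submitters' processing notes, and the counting tool is not given in the sources used here. Each library is 1 region of 1 mouse, so p-values measure the spread between mice. Columns were matched to mice by the names in the labels.

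The members and all gene lists were chosen with earlier results of these data known. Counts were tested over all genes with edgeR 4.0.16 (R 4.3.3; quasi-likelihood F test, robust, TMM factors, filterByExpr on sex and age groups), with Benjamini-Hochberg adjustment over all genes tested and a threshold of 0.05. Age slopes carried sex as a term, and sex was tested within 3 to 21 months with age as a factor. SEs are the size of the log2 difference over the square root of F. DESeq2 1.42.0, RLE factors, no filter, covariates (library total, neuronal level), males alone, mice 16 to 56 alone and leaving out single mice were alternatives; the Ttr and epithelial covariates, single doubtful libraries and relations within mice were added after the data were seen. The edgeR age slope fit of the Choroid Plexus was tested on simulated counts with the same dispersion for all genes. That dispersion was set below the spread of the members, whose levels had coefficients of variation from 36.7% to 45.4% (n = 57). The call rates that follow can therefore be too high for the members. With a true slope of 0.03 log2 per month 29 of 50 genes were called, and with -0.03, 31 of 49. With 0.06 it was 49 of 50, and with 0, 6 of 14317. Slopes between 0 and 0.03, where those of the members lie, were not simulated, so slopes of that size can be missed. Ttr was compared between regions by permutation tests (100000 resamples), with a pseudocount of 1 CPM. Same-numbered libraries come from the same mouse, so the mouse was used as a block in an alternative. Besides the members, up to 2 rising and 2 falling genes per list, each averaging 5 CPM or more, were named by smallest p, with Jak2, Stat5a, Stat5b, Cish and Socs2, and the 5 genes closest to the members' mean; Socs3, the 7 epithelial genes that fell relative to Ttr, and those named for sex were chosen after their values were seen. Gene positions are from GENCODE vM21 (GRCm38). Python 3.11.15, numpy 2.4.6, pandas 2.3.3, scipy 1.17.1 and matplotlib 3.10.9 made the tables and plots. Levels above 0 in a library rest on its depth, and 1 read of the shallowest library is a larger CPM than 1 read of the deepest.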

Additional observations from a re-analysis of the deposited data

Results flagged for a closer look

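Within each age and sex of the Choroid Plexus, 209 groups of member levels or of ratios to Ttr were searched for a highest or lowest mouse set far apart from the others, and 11 were found (5.26%), where chance gives about 1 in 20. The groups share mice and the ratios share their Ttr reads, so the flags are not separate, and their number was not tested. A low Slc4a5 level came from mouse 41, a female of 3 months, with 9.69 CPM against 36.5 to 45.1 in the other females of that age, and from mouse 38, a female of 15 months, with 26.4 CPM against 42.7 to 48.1. Mouse 13, a female of 12 months, had 93.4 CPM of Folr1 (others 59.7 to 64.0) and 102.0 CPM of Sostdc1 (others 62.8 to 68.7). In these mice the flagged levels went with those of every other member. Mice 41 and 38 were the lowest of their groups for each member, with 1676 and 3677 CPM of Ttr. Mouse 13 was the highest of its group for each, with 7276 CPM of Ttr.

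Per 1000 Ttr reads, mouse 3, the male of 12 months with the least Ttr, had 44.1 Kl reads (others 32.5 to 33.7), and mouse 44, a female of 21 months, had 38.4 (others 29.7 to 31.9). Mouse 16, a male of 21 months with 8819 CPM of Ttr, had 10.7 Sostdc1 reads (others 13.0 to 14.4). Otx2 had 5.85 reads in mouse 22 (male, 15 months, others 4.15 to 4.64), and Slc4a5 had 5.84 in mouse 34 (male, 15 months, others 6.42 to 6.65). Mouse 8, a male of 26 months, stood apart for both Enpp2 (801.0, others 580.0 to 614.0) and Otx2 (8.36, others 4.0 to 5.13).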

How the results depend on the processing

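The number of members called for the age slope in Choroid Plexus was 0 with RLE factors, no filter, DESeq2, the neuronal and library-total covariates, males alone, mice 16 to 56 alone and scaling without the members, and 0 to 0 when each of 57 mice was left out. It was 1 with the Ttr covariate (Kl, also in its 4 subsets) and 5 with the epithelial covariate (6 without mouse 3, 4 within mice 16 to 56, 2 in males alone). Kl turned from 0.00991 to -0.013 with the Ttr covariate (-0.0132 without mouse 3, -0.0185 within mice 16 to 56, -0.0117 in males, -0.0137 without mouse 44). In the age groups, calls were added over the 6 ages, so a member can count at more than 1 age. There were 0 such calls in the main fit, 8 with the epithelial and 3 with the Ttr covariate. The most at 1 age were 4 of 10 members at 21 months with the epithelial covariate, where 2836 of 14648 genes passed. For sex, 1 member was called, 0 to 1 leaving out each of 49 mice, 0 with the neuronal covariate or within mice 16 to 56, 2 with the epithelial covariate (2 in both subsets), and 3 with the Ttr covariate (3 without mouse 3, 2 without mouse 37 or 44, 1 within mice 16 to 56); Ttr turned from -0.191 to 0.162 with the epithelial covariate (0.163 within mice 16 to 56). Age by sex gave 0 to 0 members. Over all genes, the slope called 2940, and 736 in males alone (789 with the epithelial, 620 with the Ttr covariate). The age groups gave 4547 calls, and 881 in males, added over the 6 ages with a gene counted at each. Sex called 139, and 214 by DESeq2, and age by sex called 0, and 3 with no filter. In the other regions, 10 member slopes were called, 10 to 12 leaving out each of 7 mice, 5 in males, 4 within mice 16 to 56 and 5 with the Ttr covariate; over all genes 19497, 12166 in males and 11540 within mice 16 to 56. Motor cortex Ttr turned to 0.125 without mouse 3 and Hippocampus (anterior) Sostdc1 to -0.00384 without mice 5 and 20. Library and member pairs outside Choroid Plexus at or above 1 CPM numbered 4325, and 2622 at 5 CPM. Of the 13 steps of Ttr between regions, 6 passed alone and 6 with the mouse as a replicate block, which changed no call; with a pseudocount of 0.1, 5 passed, Corpus callosum against Subventricular zone was -0.339 (adjusted p = 0.744), and Pons against Hippocampus (anterior) lost its call (-0.985, adjusted p = 0.182). Fewer mice remain in the subsets; the cause of the other changes was not tested.

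The 26- and 28-month groups hold males only and few mice, so their differences have wide intervals. Ages 12, 26 and 28 months cannot be told apart from the runs of mouse numbers. Levels of 1 CPM or less rest on few reads, and a library at 0 shows only that no read was counted. The measure of epithelium is itself made of genes of that epithelium.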

Other observations

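Prlr was also detected in Pons, Medulla and Thalamus, where the median of Ttr was 0.151, 2.89 and 8.77 CPM. The median of Prlr was 15.04 CPM in Pons (5.294 to 22.51, n = 51), 12.09 CPM in Medulla (7.935 to 39.26, n = 58) and 21.7 CPM in Thalamus (9.572 to 118.4, n = 59), which is 10.7%, 8.63% and 15.5% of the Choroid Plexus median. The upper ends in Medulla and Thalamus include libraries rich in Ttr: 1 library of Medulla and 9 of Thalamus had 500 CPM of Ttr or more, up to 1657 and 1695 CPM. In Subventricular zone it had 44.94 CPM (7.398 to 303.9, n = 55), and no library of that region was at 0. Cortical and cerebellar medians were lower, at 1.527 CPM in Motor cortex, 2.051 CPM in Visual Cortex and 0.614 CPM in Cerebellum.

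The sex difference of Prlr was looked for in the regions that carry the most Ttr, in a comparison added after the data were seen. In Corpus callosum at 3 to 21 months, Prlr in males minus females was 0.986 log2 (SE 0.723, adjusted p = 0.57, edgeR) and Ttr 1.74 (SE 1.12, adjusted p = 0.498). With the 4 epithelial genes as a covariate, Prlr was -0.494 (SE 0.14, adjusted p = 0.091), and with Ttr as the covariate -0.105 (SE 0.281, adjusted p = 0.914). In Subventricular zone Prlr was 0.0418 (SE 0.41, adjusted p = 1), -0.2 with the 4 genes (SE 0.164, adjusted p = 0.983) and -0.374 with Ttr (SE 0.172, adjusted p = 0.761). None of these passed, and their difference from the value in Choroid Plexus was not tested. Without a covariate, all 10 members were higher in males of Corpus callosum by point estimate (median 1.56 log2). There 8 of 10 had an unadjusted p below 0.05 (edgeR), as did 1995 of 14283 genes, and 0 of 10 passed after adjustment. In Subventricular zone all 10 were also higher in males (median 0.582 log2), with 0 at an unadjusted p below 0.05.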
